A study of Mus musculus with 2 samples.

Results

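The circadian clock genes *Arntl*, *Clock*, *Per1*, *Per2*, *Per3*, *Cry1*, *Cry2*, *Nr1d1*, *Nr1d2* and *Dbp* were read in hepatocytes cultured from the livers of control and *Drp1*LiKO mice. They were taken by their names in the design of the array, which gave 10 of 37071 gene names and 25 of 56600 probes. Both genotypes are labeled as on a C57BL/6 background. Control mice were littermates that carried *Drp1*flox/flox without Cre and are labeled wild type. *Drp1*LiKO mice carried *Drp1*flox/flox with *Alb-Cre*, in which the albumin promoter drives Cre in hepatocytes. Cells of a culture in which that promoter was never active keep the gene. Cells were plated on collagen in medium with serum and insulin and harvested 24 h after seeding. Mice lived under equal hours of light and dark, with lights off in the evening, and had free access to food before hepatocytes were isolated. The methods give an age and sex for purchased mice, but none for the animals behind these cultures. They give a morning hour for experiments in a sentence that names hepatocyte isolation as an exception, so the time of day of harvest is not known here, nor is the number of animals. RNA of each genotype was labeled in 1 color (Cy3) and read on 1 array of 60-mer probes. There was thus no replicate, no test was made, and every difference describes these 2 arrays. Each culture was read at 1 time, so that a shift in the phase of a rhythm and a change in its level cannot be told apart.

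The mammalian clock is a loop of transcription and repression that runs in nearly every cell, including hepatocytes. The proteins ARNTL (also called BMAL1) and CLOCK bind together to E-box sequences and turn on the *Per* and *Cry* genes, whose products then repress ARNTL and CLOCK. A second loop runs through the REV-ERB receptors, made by *Nr1d1* and *Nr1d2*, which repress *Arntl* from sites called RORE. *Dbp* is a direct target of ARNTL and CLOCK, and its protein binds D-box sequences and carries the rhythm on to genes of liver metabolism. In liver these rhythms follow feeding and hormones, and in cultured cells serum can reset them.

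The promoters of these genes were searched for such sequences in RefSeq windows of GRCm38.p6, which run from 250 bases before a start of transcription to 50 after it. Windows were found for 9 of the 10 genes, 13 in all, and none for *Per2*. Both strands were searched for the E-box CACGTG, the related E'-box CACGTT, the D-boxes TTATGTAA and TTACGTAA, the RORE cores TAGGTCA and TGGGTCA, and the cAMP element TGACGTCA, and no letters of one match overlapped those of another. The stretches that hold a match before the start are shown so that the sites can be seen beside the values of the genes, with the matched letters in capitals. A match is a description of the sequence and not a binding site.
*Per1*, chr11:69098753-69098820, plus strand: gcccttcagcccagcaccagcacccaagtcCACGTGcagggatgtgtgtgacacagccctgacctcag
*Cry1*, chr10:85185077-85185163, minus strand: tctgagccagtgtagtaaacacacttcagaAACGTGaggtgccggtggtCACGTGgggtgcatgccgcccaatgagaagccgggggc
*Cry2*, chr2:92434198-92434265, minus strand: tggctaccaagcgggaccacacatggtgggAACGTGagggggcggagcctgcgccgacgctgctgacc
*Nr1d1*, chr11:98775378-98775435, minus strand: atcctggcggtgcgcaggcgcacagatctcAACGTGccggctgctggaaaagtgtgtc
*Per3*, chr4:151044786-151044900, minus strand: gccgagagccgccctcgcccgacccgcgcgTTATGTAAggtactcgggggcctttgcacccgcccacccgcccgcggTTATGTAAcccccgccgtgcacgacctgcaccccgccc
*Dbp*, chr7:45705147-45705246, plus strand: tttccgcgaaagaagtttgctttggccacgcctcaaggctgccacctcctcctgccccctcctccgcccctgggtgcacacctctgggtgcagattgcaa

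The E-box stood in windows of 2 of the genes, *Per1* and *Cry1*, and in 7.15% of all 32851 promoter windows of the same length. The E'-box, which reads AACGTG on the other strand, stood in windows of 3 genes, *Cry1*, *Cry2* and *Nr1d1*, and in 4.68% of all windows. In the *Cry1* window the E'-box began 79 and the E-box 60 bases before the start. *Per3* held the D-box TTATGTAA at 2 places, 205 and 158 bases before its start, and 0.938% of all windows held it at least once. TTACGTAA stood in 0.119% of all windows and in no window of these genes. Of the RORE cores, TAGGTCA stood in 2.61% and TGGGTCA in 3.98% of all windows, and 1 match was found among these genes, in the transcribed part of an *Arntl* window. The cAMP element, in 1.79% of all windows, matched in 0 of them. The *Dbp* window held none of these letters, and the 100 bases before its start are shown because *Dbp* had the largest ratio of the 10 genes.

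Values below are processed signals, linear intensities that Feature Extraction had corrected for background. Ratios are on the log2 scale, *Drp1*LiKO minus control, after the 75th percentile of each array was set equal, which took 0.18 off every ratio. A gene was read from its brightest probe. The Z score of a ratio is its distance from the mean of all detected probes in units of their SD, and a score of 2, the criterion of the study, was reached at a log2 ratio of 1.30 or -1.31. The spot noise is the SD of a ratio between single spots, from the probes printed 10 times that were nearest in signal on each array. It holds no difference between cultures. Over a wide range of dim signals the nearest such probes were the same, so many dim probes share a value of 0.21. Printed probes with a signal below 64 had a median SD of 0.22 on the control and 0.29 on the *Drp1*LiKO array. The shared 0.21 is thus too low for the dimmest ratios. The targeted gene, listed as *Dnm1l*, had a signal of 2602 in control cultures and 1217 in *Drp1*LiKO cultures at its brightest probe. Its log2 ratio was -1.28, a Z score of -1.95. A second *Dnm1l* probe was dim, with 22.8 in control cultures and 20.9 in *Drp1*LiKO cultures, a ratio of -0.31 at a spot noise of 0.21.

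Of the 10 clock genes, *Dbp* was the one past a Z score of 2, higher in *Drp1*LiKO cultures, and none was past -2. Of all 20165 genes detected, 3.50% were past the threshold upward and 2.81% downward. By a change of at least 1.5-fold, 2 of the 10 genes were higher, *Dbp* and *Per3*, and 0 were lower, where 10.3% of all genes were higher and 10.3% lower. The counts of clock genes thus differed from those shares by about 1 gene. Normalized values were deposited as well, in a table whose *Drp1*LiKO column ranked the probes differently from the *Drp1*LiKO array (rank correlation 0.958), so whether it holds the same scan is not known, and its values are given beside the others with that limit. In that table, 2.74% of all genes were past the threshold upward and 3.64% downward, and none of the clock genes was. The other 8 genes had log2 ratios from -0.35 for *Arntl* to 0.28 for *Per1*. The median of the 10 ratios was -0.11, beside -0.05 for all genes. Of the 25 probes, 19 were well above background on both arrays, 1 on the *Drp1*LiKO array alone and 5 on neither.

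**Figure D1:**
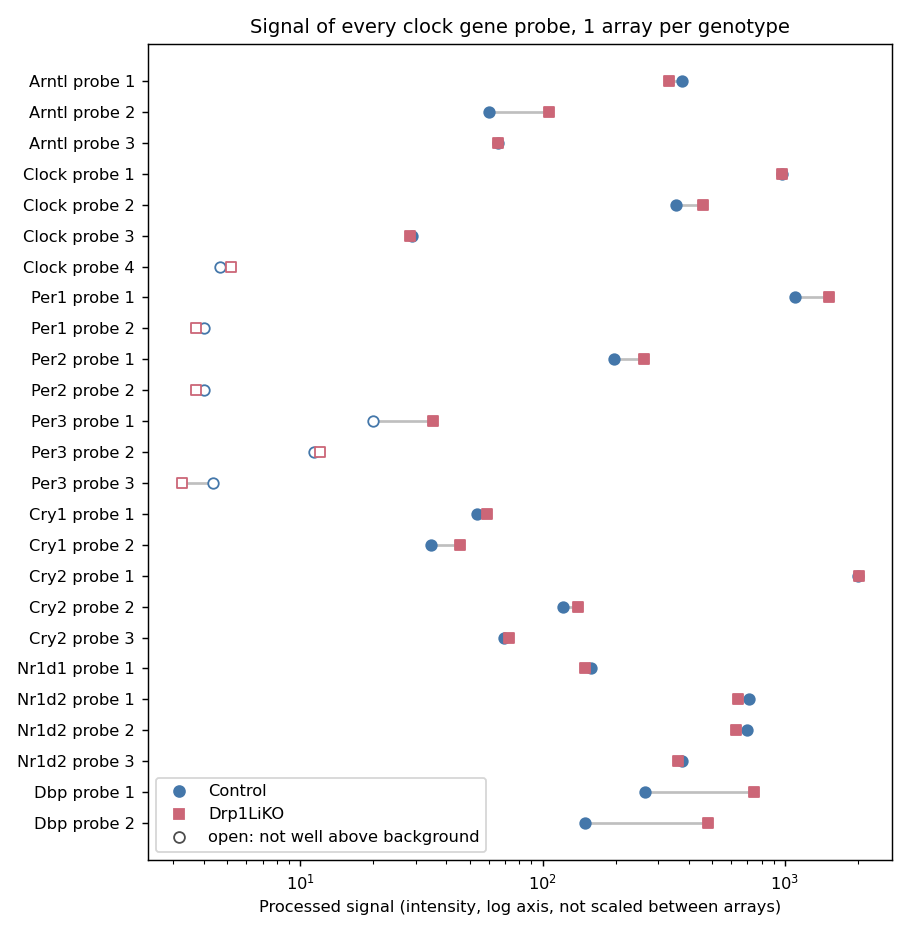
Processed signal (intensity, log axis, not scaled between arrays) of all 25 probes of the 10 clock genes, with a circle for the control and a square for the *Drp1*LiKO array and open symbols where a probe was not well above background. Probes are numbered from the brightest of each gene, and both probes of *Dbp* have the widest gap among probes detected on both arrays.

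*Dbp* encodes a transcription factor of the PAR bZIP family, and its messenger RNA has one of the strongest daily rhythms known in liver. Its brightest probe (NM_016974, chromosome 7 of mm9, 52965265 to 52965324) had a signal of 263 in control cultures and 744 in *Drp1*LiKO cultures. The log2 ratio was 1.32, or 2.49-fold, with a spot noise of 0.14 and a Z score of 2.03, just past the threshold. A second probe lies 136 bases further along the same transcript (52965461 to 52965520). It had a signal of 149.7 in control cultures and 482 in *Drp1*LiKO cultures, a 2.84-fold difference and a Z score of 2.32. Both probes differed by over 9 times their spot noise, in the same direction. By the size of its ratio *Dbp* stood at place 692 among the 20165 genes. In the deposited table its brightest probe had a ratio of 1.29 and a Z score of 1.97, just short of 2. With signals of dim probes left as they were, which widens the spread of all ratios, the Z score was 1.42. In whole cultures, a different number of cells of a type and a different amount of RNA per cell cannot be told apart.

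The activators of the loop, which drive *Dbp* and the *Per* and *Cry* genes, had no probe past the threshold in either direction. *Arntl* had a signal of 376 in control cultures and 333 in *Drp1*LiKO cultures at its brightest probe (NM_007489, chromosome 7 of mm9, 120456978 to 120457037). This gave a log2 ratio of -0.35, at a spot noise of 0.16. Its probes did not go one way. The second (120439030 to 120439089) had a signal of 60.2 in control cultures and 106 in *Drp1*LiKO cultures, a log2 ratio of 0.63, and the third, whose 60 bases span 1684 bases of the genome and so cross an intron, had 65.5 and 65.8, a log2 ratio of -0.18. By the deposited table the second probe was lower in *Drp1*LiKO cultures, with 67.5 in control cultures and 47.7 in *Drp1*LiKO. No direction for *Arntl* is therefore drawn here.

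*Clock*, which encodes the partner of ARNTL, had a signal of 975 in control cultures and 969 in *Drp1*LiKO cultures (NM_007715, chromosome 5 of mm9, 76641377 to 76641436). After scaling, the log2 ratio was -0.19, with a spot noise of 0.11. Of its other probes, the second had 355 in control cultures and 460.3 in *Drp1*LiKO cultures, a ratio of 0.19, and the third had 29.0 and 28.5, a ratio of -0.21. The fourth was not well above background on either array. By the scanner signals, the detected probes of *Clock* thus lay on both sides of 0, each 1.14-fold to 1.16-fold from control. In the deposited table the brightest probe was further from control, with 1024 in control cultures and 763 in *Drp1*LiKO cultures, a ratio of -0.42.

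The Period genes encode the repressors whose levels set the pace of the loop, and *Per1* and *Per2* are also induced directly by hormones and by cAMP. *Per1* had a signal of 1099.8 in control cultures and 1518 in *Drp1*LiKO cultures (NM_011065, chromosome 11 of mm9, 68923364 to 68923423). The log2 ratio was 0.28, or 2.67 times its spot noise, and its Z score of 0.44 was far from the threshold. In the deposited table *Per1* had a ratio of 0.50. *Per2* had 197 in control cultures and 263 in *Drp1*LiKO cultures (NM_011066, chromosome 1 of mm9, 93312595 to 93312654), a log2 ratio of 0.23 at a spot noise of 0.16. The second probe of each was not well above background on either array, at signals from 3.71 to 4.03. *Per1* and *Per2* were each read from a single probe, and neither passed the threshold.

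*Per3*, the Period gene that the loop can run without, was dim. The probe that detected it, named for the transcript ENSMUST00000138584 (chromosome 4 of mm9, 150385608 to 150385667), had a signal of 20.002 in control cultures and 35.3 in *Drp1*LiKO cultures, and it was well above background in the latter alone. After scaling, these signals gave a 1.56-fold higher value in *Drp1*LiKO cultures, a log2 ratio of 0.64, with a Z score of 0.99. The control signal was above the lowest one well above background on its array, 18.2, and so was not raised. The ratio is thus that of the measured signals and not a lower bound. The other probes, for NM_001289878 and NM_011067, had signals of 11.4 and 4.36 in control cultures and 12.1 and 3.25 in *Drp1*LiKO cultures, none of them well above background. With normexp background correction, in which a constant is added to dim signals, the ratio was 0.05. In the deposited table it was 0.34, or 0.27 once the dim control value was raised to a detection limit.

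The Cryptochromes are the repressors that block ARNTL and CLOCK most directly. *Cry1* was dim on both arrays. Its brighter probe (NM_007771, chromosome 10 of mm9, 84647094 to 84647153) had 53.8 in control cultures and 58.7 in *Drp1*LiKO cultures, a log2 ratio of -0.06, and the other had 34.5 and 45.6, a ratio of 0.22. The spot noise was 0.21 for both, so that neither can be set apart from 0. In the deposited table the brighter probe had a ratio of 0.61 instead. *Cry2* had a signal of 1999 in control cultures and 2011 in *Drp1*LiKO cultures (NM_009963, chromosome 2 of mm9, 92243807 to 92243866), a log2 ratio of -0.17 at a spot noise of 0.09. Its probes for the transcripts ENSMUST00000111278 and ENSMUST00000125488 had ratios of 0.03 and -0.12.

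The REV-ERB receptors close the second loop, in which they repress *Arntl* while ROR receptors activate it. *Nr1d1*, which encodes REV-ERB alpha, had a signal of 159 in control cultures and 150.2 in *Drp1*LiKO cultures, at a probe whose bases span 503 bases of chromosome 11 of mm9 (NM_145434, 98630526 to 98631028). Its log2 ratio was -0.26 at a spot noise of 0.17. *Nr1d2*, which encodes REV-ERB beta, had 708 in control cultures and 639 in *Drp1*LiKO cultures at its brightest probe (BC096461, chromosome 14 of mm9, 19036568 to 19036627), a log2 ratio of -0.33. Its other probes had ratios of -0.33 and -0.23. All 3 probes of *Nr1d2* and the probe of *Nr1d1* were thus lower in *Drp1*LiKO cultures, by 1.18-fold to 1.26-fold, with Z scores no lower than -0.50. The unscaled signals were also lower.

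**Figure D2:**
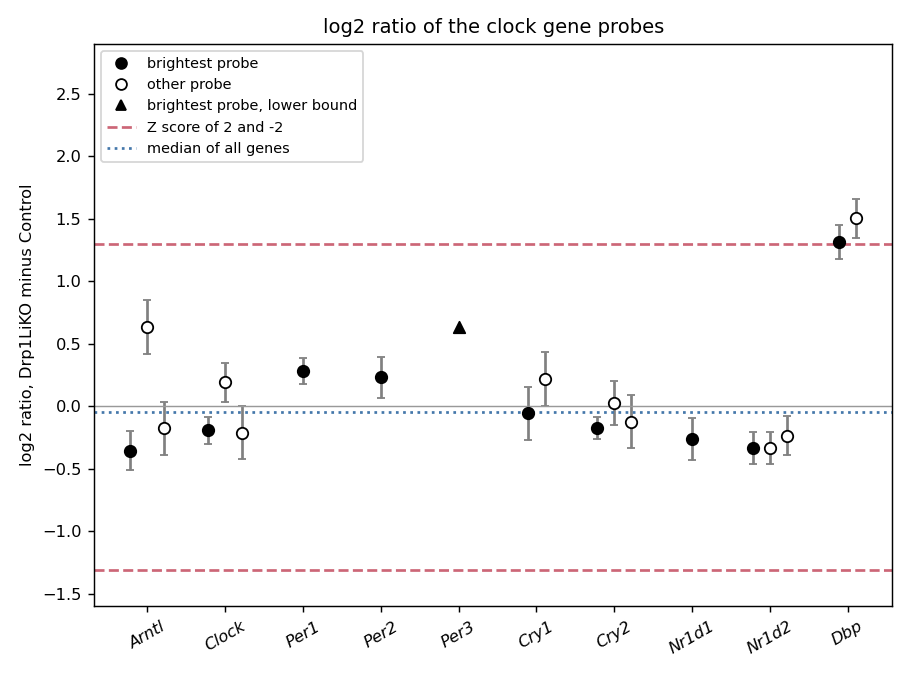
log2 ratio (*Drp1*LiKO minus control) of the 20 detected probes of the clock genes, filled for the brightest probe of a gene and open for the others, with bars of 1 SD of spot noise. The triangle, labeled a lower bound, is the measured ratio of *Per3*, without a bar because its control signal was not well above background. Both probes of *Dbp* lie above the dashed line of a Z score of 2, and no other probe reaches either dashed line.

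*Dbp* has 2 relatives in the PAR bZIP family, *Tef* and *Hlf*, whose proteins bind the same D-box, and a rival, *Nfil3*, which represses from it. *Tef* had a signal of 4849.8 in control cultures and 5766 in *Drp1*LiKO cultures, a log2 ratio of 0.07, with its 4 probes from -0.20 to 0.07. *Hlf* had 42.4 in control cultures and 49.3 in *Drp1*LiKO cultures, a log2 ratio of 0.03. *Nfil3* had 9142 in control cultures and 7950.2 in *Drp1*LiKO cultures, a log2 ratio of -0.38, and its second probe had one of -0.33. These ratios stood beside 1.32 for *Dbp*, and none of the relatives was past the threshold.

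These 3 genes belong to a list of 18 other regulators of the clock, of which 14 were detected, all of them on both arrays. Of these, 0 passed the Z score threshold in either direction, 5 had ratios above 0 and 9 below, and the median was -0.06. A change of at least 1.5-fold was seen for 1 gene, *Ciart* (also called CHRONO), a repressor of ARNTL and CLOCK. This was 1 lower and 0 higher of 14, or 7.14%, where 10.3% of all genes were lower and 10.3% higher. *Ciart* had a signal of 113 in control cultures and 70.0 in *Drp1*LiKO cultures (NM_001033302, chromosome 3 of mm9, 95682433 to 95682492), a log2 ratio of -0.88 at a spot noise of 0.21 and a Z score of -1.33. The other 13 genes lay between -0.38 and 0.35. In the deposited table, *Gsk3b* and *Hlf*, at -0.10 and 0.03 by the scanner signals, had 0.96 and -0.61 at the same probes, past 1.5-fold. Among the 13 were *Rora*, which encodes a receptor that activates *Arntl*, with a ratio of -0.06, and kinases that mark PER proteins for degradation. The ratios of these kinases were -0.07 for *Csnk1d* and 0.03 for *Csnk1e*, whose other detected probes reached 0.32 and 0.44. In the deposited table *Csnk1d* had -0.57. *Npas2*, which can stand in for *Clock*, and *Rorb*, *Bhlhe41* and *Fbxl21* were not well above background on either array.

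Of 12 liver genes under clock control, 11 were detected and 0 passed the threshold, with a median log2 ratio of 0.09. A change of at least 1.5-fold was seen for 3 of them, 2 higher and 1 lower, beside the 10.3% of all genes in each direction. *Alas1*, the first enzyme of heme synthesis and a D-box target, had a signal of 7716 in control cultures and 15802 in *Drp1*LiKO cultures, a log2 ratio of 0.85. Its 3 probes had ratios from 0.85 to 1.07, with Z scores of up to 1.66. *Gys2*, the glycogen synthase of liver, had 236 in control cultures and 498 in *Drp1*LiKO cultures, a log2 ratio of 0.89 and a Z score of 1.38. *Upp2*, a uridine phosphorylase, had 78.4 in control cultures and 56.1 in *Drp1*LiKO cultures, a log2 ratio of -0.67, while its 4 other probes were not well above background. The ratio of *Upp2* was short of 1.5-fold with normexp correction, at -0.37, and in the deposited table, at -0.39. The remaining 8 lay between -0.46 for *Usp2* and 0.56 for *Nampt*, which makes the rate-limiting enzyme of NAD salvage. The deposited table differed for some of these. There *Lpin1*, with 0.39 by the scanner signals, had a ratio of 1.24 at the same probe and 0.18 at its second probe. *Nampt* had 0.75 there, so that both were past 1.5-fold in that table. *Por*, which encodes the electron donor of cytochrome P450 enzymes, had a ratio of 0.36, and *Wee1*, a kinase that links the clock to mitosis, one of -0.18, while its dimmer probe, not well above background in control cultures, had a lower bound of 0.20. *Cyp7a1* was not well above background on either array.

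**Figure D3:**
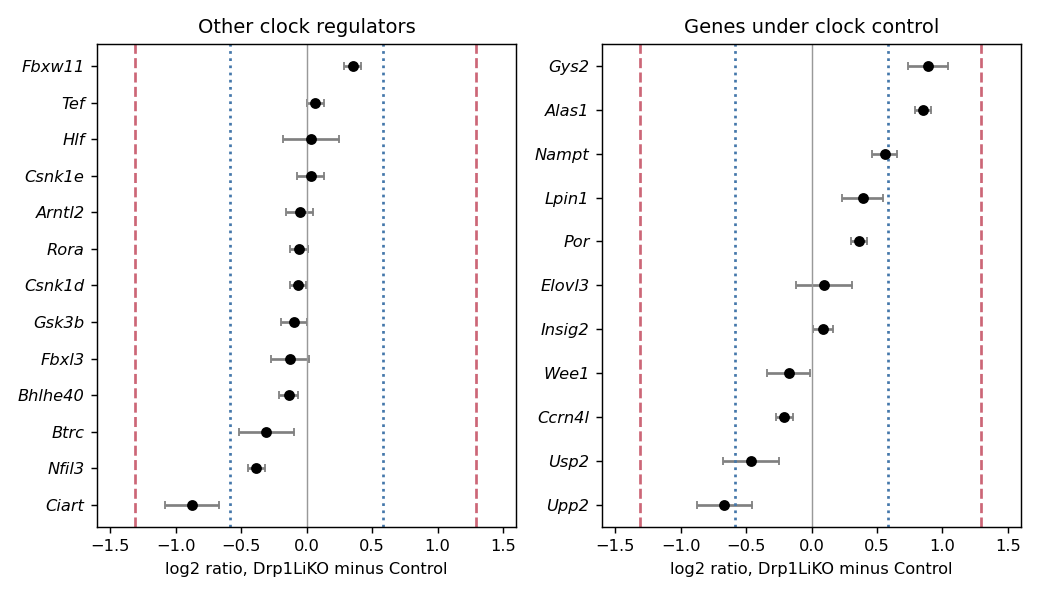
log2 ratio (*Drp1*LiKO minus control) of the brightest probe of 13 of the 14 other clock regulators detected and of 11 genes under clock control, with bars of 1 SD of spot noise, dotted lines at 1.5-fold and dashed lines at a Z score of 2 and -2. *Ciart*, *Upp2*, *Alas1* and *Gys2* lie beyond a dotted line and no gene beyond a dashed one.

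The clock runs in most cell types, and the cultures differed in markers of cells other than hepatocytes. All 10 hepatocyte markers were detected, *Alb* with a signal of 219613 in control cultures and 266703 in *Drp1*LiKO cultures, and their summed signal was 629431 and 693327, or 0.97 times control after scaling. The sum was mostly *Alb* and *Serpina1a*, and single markers went both ways, with 3 at least 1.5-fold higher, 1 lower and none past the threshold. *Tat*, an enzyme of tyrosine breakdown, had a log2 ratio of 1.28, *Pck1* a lower bound of 0.96 and *Cps1* a ratio of 0.65, while *Cyp2e1* had -0.78. *Pck1* was dim, with 11.7 in control cultures and 40.2 in *Drp1*LiKO cultures. In the deposited table it was lower in *Drp1*LiKO cultures instead, with 13.2 in control cultures and 10.3 in *Drp1*LiKO, a ratio of -0.35. *Tat*, *Cps1* and *Cyp2e1* kept their directions there. All 10 markers of Kupffer cells and macrophages were higher in *Drp1*LiKO cultures, 8 of them past the threshold, and their summed signal was 10796 in control cultures and 26317 in *Drp1*LiKO cultures, 2.15 times control after scaling. That sum was mostly *Cd14* and *Cd68*, and the median log2 ratio of the 10 was 2.28. *Clec4f* and *Vsig4*, which mark Kupffer cells, were well above background in *Drp1*LiKO cultures alone. All 7 endothelial markers were higher too, 3 past the threshold, with a summed signal 1.79 times control. This sum was nearly all *Egfl7*, and the median log2 ratio of the 7 was 1.26. Of 6 stellate markers, 5 were detected, *Lrat* not among them, and 4 of these were higher, 2 past the threshold, with a median log2 ratio of 1.04. *Des*, not among the 4, was not well above background in control cultures, with 6.47 there and 18.5 in *Drp1*LiKO cultures. Its ratio of -0.16 was therefore a lower bound and gives no direction, and in the deposited table it had 1.07. *Col3a1* was at least 8.78-fold and *Pdgfrb* at least 3.63-fold higher, and neither was well above background in control cultures. The summed signal of stellate markers, nearly all of it *Acta2*, was 1.03 times control. Cholangiocyte markers had a sum of 0.75 times control, mostly *Spp1*, with 4 of 5 detected, *Epcam* not among them, and 2 of the 4 higher. *Spp1* had a log2 ratio of -0.46 and *Krt19* one of -0.40, while *Sox9* had 0.58 and *Krt7* a lower bound of 0.59. The median of the 4 was 0.09. The part of these cells in the values of the clock genes was not tested.

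**Figure D4:**
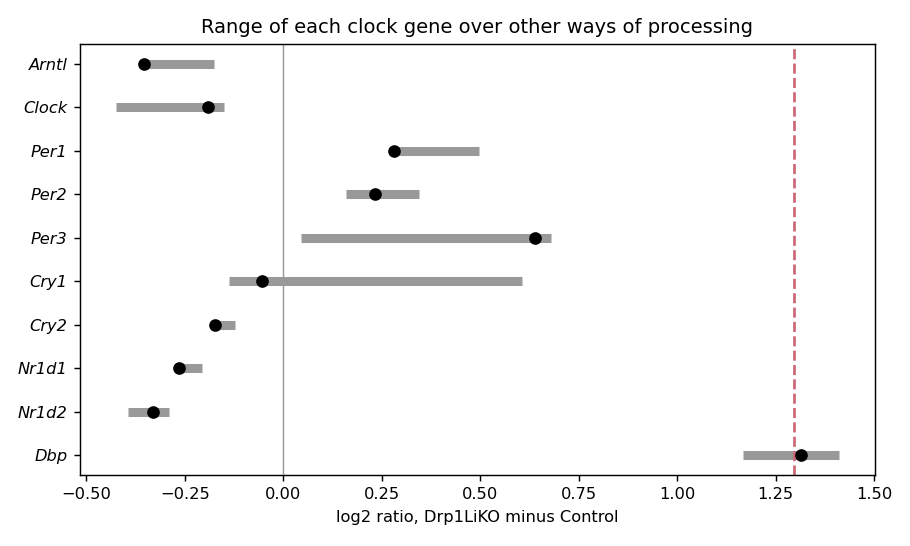
log2 ratio (*Drp1*LiKO minus control) of each clock gene as reported (point) and its range over up to 11 other ways of processing (bar), with the dashed line at a Z score of 2 as reported. *Dbp* stayed between 1.17 and 1.41, *Cry1* crossed 0 and *Per3* reached down to 0.05. Changes of filter, floor or Z score left the ratios of genes that were kept as they were.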

How the data were processed

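The authors deposited, for each of 2 arrays, the scanner output of Agilent Feature Extraction, in which every spot has a raw intensity and one corrected for background. They also deposited a value table of normalized intensities, whose method is not given in the sources used here. Both arrays were on 1 slide. The submitters' processing notes name Feature Extraction 9.5.1.1. The rank correlation of that table with the scanner signals was 1.00 for control and 0.958 for *Drp1*LiKO probes, so the *Drp1*LiKO column may not hold the same scan, and the table served only as an alternative.

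Control and outlier spots were left out, and log2 signals were averaged per probe and scaled by the 75th percentile, 313 for the control and 356 for the *Drp1*LiKO array. Of all probes, 48.2% and 52.1% were well above background. The 30275 that were so on at least 1 array were kept, and dimmer signals were raised to the lowest such signal, 18.2 and 15.0. With 1 array per genotype, that number limits all precision. The spot noise is a median over the 30 probes nearest in signal, of 300 printed 10 times.

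The genes and lists were chosen with earlier results of these data known. Clock genes are given with all probes, and list genes are named from a change of 1.5-fold, others as examples. For 10 of 10 genes the RefSeq accession of a probe matched the same symbol in the GRCm38.p6 table. Coordinates of probes are those of the files, in mm9. *Noct* was read as *Ccrn4l*. Of the other regulators, 1 is counted but not reported here by name. The steps were tested on simulated data. Software was limma 3.58.1 in R 4.3.3, and scipy 1.17.1, pandas 2.3.3, matplotlib 3.10.9 and numpy 2.4.6 under Python 3.11.15. Tried as alternatives were normexp background correction (offset of 50), quantile normalization, spike-in scaling, the deposited values, no floor, 2 other filters for dim probes, keeping outlier spots, 2 other Z scores and the median of the probes of a gene.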

Additional observations from a re-analysis of the deposited data

How the results depend on the processing

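No paired analysis was possible because each genotype had 1 array, and for the same reason no array could be left out. *Dbp* had a log2 ratio of 1.17 to 1.41 under 11 alternatives and passed the threshold in 9, so the number of clock genes past it upward was 1 in these, and 0 with the deposited normalized values and with no floor for dim probes. In none of the 11 was a clock gene past it downward. Not all of these could move the ratio of *Dbp*. The 2 other filters, no floor and the 2 other Z scores could change its Z score alone. Keeping outlier spots could hardly matter, since 0 spots of the clock genes were marked as outlier. Spike-in scaling shifts all ratios alike and so left its Z score at 2.03. The count of clock genes at least 1.5-fold higher, whose alternatives were chosen after seeing the data, went from 2 to 1 with quantile normalization, normexp correction and probes well above background on both arrays, where *Per3* fell short or was left out by construction. It stayed at 2 with the deposited values, but there *Per3*, at 0.27, fell short and *Cry1*, at 0.61, was the second gene. The median ratio of the clock genes moved most with the deposited values, to 0.0608. The sign was the same in every alternative for each clock gene but *Cry1*, which was above 0 in 2 of 11. All but the median of the probes of a gene read it from its brightest probe. The constant sign therefore gives no direction for *Arntl* or *Clock*, whose probes lay on both sides of 0. Of the genes under clock control, 1 was past the threshold with normexp correction and with the Z score among probes of similar signal (*Alas1*), and 2 with no filter on dim probes and with the robust Z score (*Alas1* and *Gys2*). Of the other regulators, 1 (*Ciart*) was past it with the robust Z score. *Ciart* was short of 1.5-fold with normexp correction, at -0.55, and *Upp2* with that and with the deposited values, at -0.37 and -0.39. With no filter, the median ratio of all genes was -0.47, and 3.66% of them were past the threshold upward and 1.61% downward. With the robust Z score these shares were 8.54% and 7.16%, so more genes of any kind passed in that setting. They were 3.63% and 2.71% with normexp correction, and 3.17% and 3.63% with the Z score among probes of similar signal. Signals near the detection limit limit what can be said of *Per3* and *Cry1*, and 1 time point without replicates limits all of it.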
